A study of Danio rerio with 16 samples.

Results

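Between the bud stage, when gastrulation ends, and the 6-somites stage, zebrafish embryos injected with a Gata6 morpholino changed 2639 of 13377 tested transcripts. Among the genes tested, those of muscle, blood and vessel precursors, extracellular matrix and the Hox clusters rose more often than they fell. Tested genes of the organizer, the pluripotent early embryo and the endoderm fell more often than they rose. The comparison rests on 4 of the 16 libraries of a study of wild-type (WT) embryos and embryos injected with morpholinos against Gata5, Gata6 or both. Gata6 morphants at 6-somites (2 libraries) were set against Gata6 morphants at bud (2 libraries), and the same 2 stages were available with 2 libraries each for Gata5 morphants, Gata5/6 double morphants and WT. A morpholino is an antisense oligomer that blocks the translation or splicing of its target RNA. The labels give neither its sequence nor its dose, and do not say whether WT embryos received a control injection or whether libraries shared a clutch. The submitters name the files of the 6-somites libraries for 12 hours after fertilization and those of the bud libraries for 10 hours. Each library is poly(A) RNA from 40 pooled whole embryos, read as single 36-base reads. The p-values measure the spread between pools, estimated for each gene from all 16 libraries together. The members of the comparison are the 13377 genes, of 25530 listed at both stages, that reached 1 RPKM (reads scaled to transcript length and library depth) in at least 2 of the 4 Gata6 libraries. Read numbers recovered from the RPKM steps put the 4 libraries at 26.5 to 29.7 M reads, within the 19.7 to 30.8 M of all 16.

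Gata6 is a zinc-finger transcription factor of the GATA family, which in zebrafish acts with the related Gata5 in heart and endoderm formation. Over the hours between these stages, the organizer and the pluripotency programme of the early embryo wind down, the first somites form and begin to make muscle, the neural plate acquires its regional genes, and the lateral mesoderm sets aside heart, kidney, blood and vessel precursors. The gata6 transcript itself was not analysed here and no protein was measured, so the block is known from the labels alone. The transcript of gata5, its close relative, stood at 46.0 and 44.2 RPKM at 6-somites, against 59.0 and 58.6 RPKM at bud. It fell by 0.38 ± 0.11 on the log2 scale (SE; adjusted p = 0.035, limma), a call that did not hold when either 6-somites library or bud replicate 2 was left out. In WT embryos gata5 was at 27.0 and 32.3 RPKM at 6-somites, against 46.3 and 52.9 RPKM at bud, and the difference between the Gata6 and WT changes was 0.35 ± 0.16 (adjusted p = 0.63).

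Differences below are log2(RPKM + 1) at 6-somites minus bud, which understates the change of low genes, and p-values are Benjamini-Hochberg adjusted over all 13377 genes from limma, with 0.05 as the threshold for a call. Of the tested genes, 1784 rose and 855 fell, which is 13.3% and 6.39% of those tested and 19.7% together. The counts of the lists below are to be set beside these shares. At an unadjusted p under 0.05 there were 4647 genes. Changes of more than 1 log2 unit were called for 311 genes that rose and 148 that fell. All 2639 called genes had both 6-somites libraries on the same side of both bud libraries, a separation that 57.1% of the tested genes showed. The median of all genes was 0.09. When libraries were first scaled by median-of-ratios factors, that median became -0.04 and the calls split into 1221 higher and 1699 lower, so the share of rises moved to 41.8%, from 67.6% without scaling. All 855 falls and 1221 of the 1784 rises remained called, and 0 changed direction. A gene that passed the level filter through 6-somites libraries only was bound to be higher there: 530 genes did so, 357 of them called higher, and 118 passed through bud libraries only, 59 of them called lower. Such genes are pointed out below, since the filter fixed their direction.

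The number of calls depended on single libraries. It was 4959 without bud replicate 1, 1280 without bud replicate 2, 913 without 6-somites replicate 1 and 843 without 6-somites replicate 2, and 287 when the 4 libraries were fitted without the other 12. The bud pair was the least alike of the 8 pairs of replicates, with an SD of 0.479 for its log2 differences across genes. The SD was 0.334 to 0.425 for the other bud pairs and 0.176 to 0.221 for the 6-somites pairs. The SE and p-values of the main fit rest on 1 spread per gene from all 8 pairs, the tighter ones included. Bud replicate 1 also had the higher values of p53 response genes: its 27 tested genes summed to 810.4 RPKM, against 516.8 RPKM in bud replicate 2, with 619.3 and 612.9 RPKM at 6-somites. The target gene mdm2 was at 16.1 RPKM in bud replicate 1 and 5.18 RPKM in bud replicate 2, with 8.56 and 6.44 RPKM at 6-somites. The part of this difference between the bud libraries in the changes below was not tested, but of the 2639 calls, 2389 were also made without bud replicate 1 and 1083 without bud replicate 2.

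**Figure D1:**
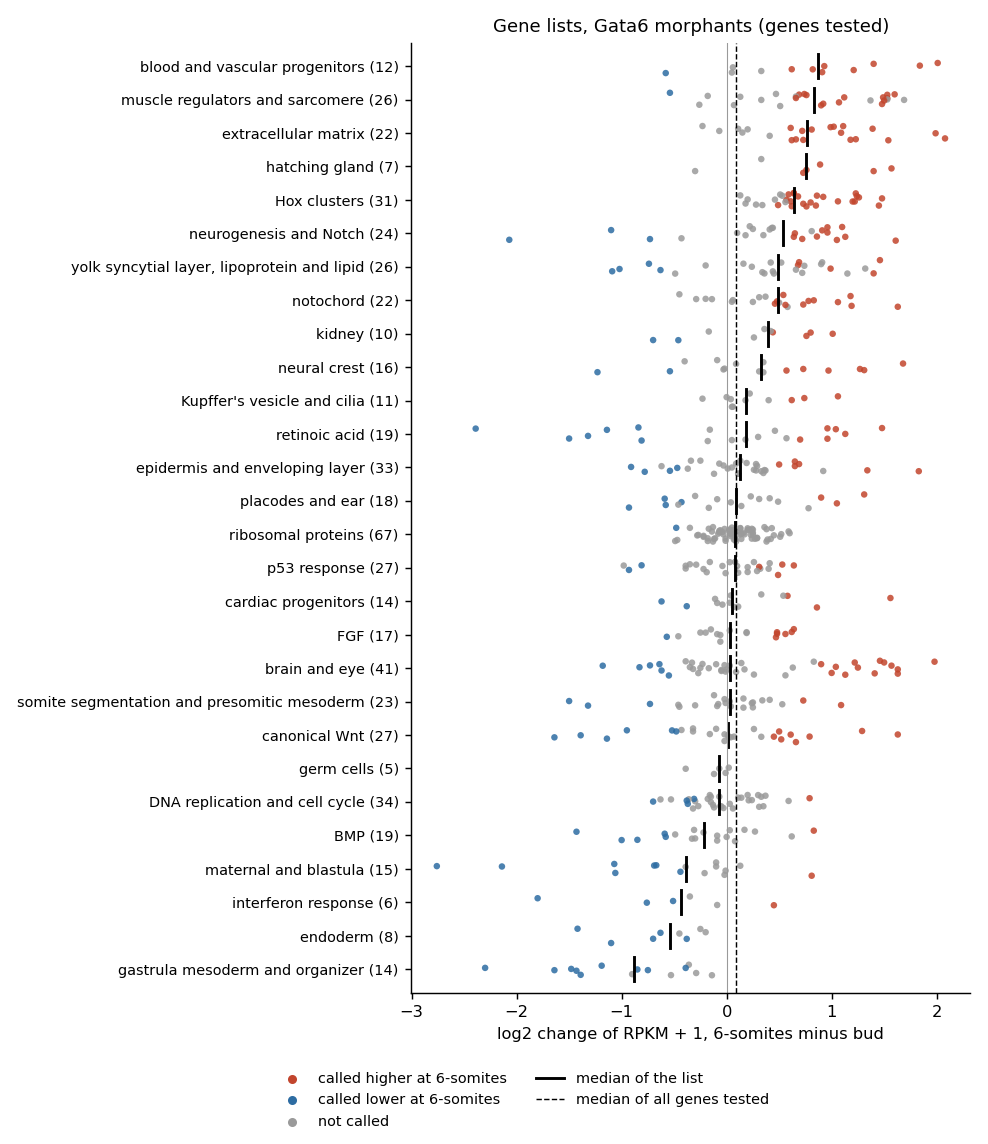
Stage change of each tested member of 28 gene lists in Gata6 morphants, as the log2 change of RPKM + 1 from bud to 6-somites. Each point is a gene, red where called higher at 6-somites, blue where called lower and grey where not called, the black bar is the median of the list, and the dashed line is the median of all 13377 genes at 0.09. Blood and vascular progenitors (median 0.87) and muscle (0.83) stand at the top, the gastrula mesoderm and organizer list (-0.88) at the bottom.

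Genes of the embryo before and during gastrulation were more often lower than higher at 6-somites. Of 28 maternal and blastula genes, 15 were tested, and of these 7 fell and 1 rose, with a median of -0.39 against 0.09 for all genes. The largest fall of any named gene was that of nnr (nanor, ENSDARG00000058917), transcribed in the early zebrafish embryo, which had 1.33 and 1.13 RPKM at 6-somites, against 12 and 16.6 RPKM at bud, a change of -2.76 ± 0.39 (adjusted p = 0.0009). Its level at bud was thus 11.6-fold that at 6-somites, from 226 and 280 reads at bud and 25 and 21 at 6-somites. The pluripotency factor pou5f3 was at 5.97 and 5.76 RPKM at 6-somites, against 20 and 42.5 RPKM at bud (-2.14 ± 0.33, adjusted p = 0.0015). Both 6-somites libraries lay below both bud libraries, as for every gene called lower, although the bud libraries differed widely from each other. The homeodomain factor nanog, which activates the zygotic genome, fell by 1.07 ± 0.21 (adjusted p = 0.0064), and the egg-coat gene zp3b by 1.06 ± 0.16 (adjusted p = 0.0011). Of the 7 falls, nanog and 1 other gene passed the level filter through bud libraries only. The call of nanog did not hold without 6-somites replicate 1 (adjusted p = 0.053). The gene of the list that rose was gdf3 (0.81 ± 0.24, adjusted p = 0.035, named after its values were seen), known in zebrafish as the Nodal partner Vg1, which was called in 1 of the 4 fits that left out a library.

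Organizer and early mesoderm genes fell together. Of 26, 14 were tested, and 9 fell and 0 rose, with a median of -0.88. Leaving out a library gave 5 to 10 falls and 0 rises. The Nodal antagonist lft2 (lefty2, ENSDARG00000044059) had 0.540 and 0.626 RPKM at 6-somites, against 5.52 and 8.28 RPKM at bud, a fall of 2.3 ± 0.17 (adjusted p = 3.1e-05). It was the 1 gene of the list that passed the level filter through bud libraries only, so that its direction was fixed by the filter. The homeobox gene gsc, the classical organizer marker, had 1.44 and 1.34 RPKM at 6-somites, against 6.86 and 4.65 RPKM at bud (-1.48 ± 0.21, adjusted p = 0.00093). The secreted BMP antagonist chrd had 44.2 and 38.5 RPKM at 6-somites, against 102 and 126 RPKM at bud (-1.43 ± 0.15, adjusted p = 0.00018). In each of these genes the stages did not overlap, as in every called gene and in 57.1% of all tested genes. The Wnt antagonist frzb fell by 1.64 ± 0.15 (adjusted p = 8e-05) and the ventrolateral ligand wnt8a by 1.39 ± 0.25 (adjusted p = 0.0038). The notochord genes noto (-0.14, adjusted p = 0.56) and tbxt (-0.29, adjusted p = 0.28) of the same list, named after their values were seen, were not called.

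Of the endoderm genes tested, those called were lower at 6-somites. Of 17, 8 were tested, and 5 fell and 0 rose, with a median of -0.54. Untested members included sox17, sox32, foxa1, foxa, nkx2.3, hhex and cdx1b. These had no matching symbol, so their levels were not examined and the list describes only part of the endoderm genes. The chemokine receptor cxcr4, which tethers migrating endoderm in the zebrafish gastrula, had 17.6 and 18.6 RPKM at 6-somites, against 40.3 and 62.0 RPKM at bud (-1.42 ± 0.17, adjusted p = 0.00036). The name table does not tell its zebrafish copies apart. The liver and pancreas regulator onecut1 fell by 1.1 ± 0.21 (adjusted p = 0.0042) and hnf4a, a regulator of liver genes, by 0.63 ± 0.19 (adjusted p = 0.038), and gata5 fell as given above. Without one of the 4 libraries, 2 to 4 of the list fell. The call of hnf4a held in no fit that left out a library.

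**Figure D2:**
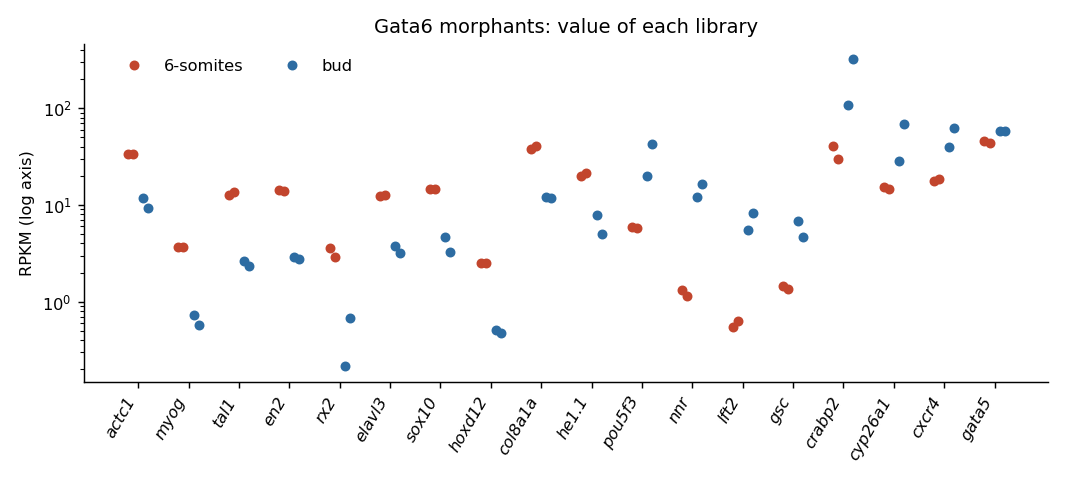
RPKM of 18 genes in each library of Gata6 morphants, on a log axis, with 6-somites libraries in red to the left of bud libraries in blue. The 18 genes were taken from the called genes, none of which overlap between stages (57.1% of all tested genes do not). Rises stand at the left (actc1 33.7 and 34.0 at 6-somites, 11.7 and 9.40 at bud) and falls at the right (crabp2 40.8 and 29.8 at 6-somites, 108 and 322 at bud). The level filter fixed the direction of myog, rx2, hoxd12 and lft2, which passed it through libraries of one stage only.

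Muscle genes rose more often than they fell. Of 53 regulators and sarcomere genes, 26 were tested, of which 14 rose and 1 fell, with a median of 0.83; leaving out a library gave 11 to 16 rises. In pooled whole embryos, a larger share of muscle precursors and more RNA per cell cannot be told apart, here or for any tissue below. The myogenic regulator myog, which switches on muscle differentiation, had 3.71 and 3.64 RPKM at 6-somites, against 0.728 and 0.572 RPKM at bud, a rise of 1.5 ± 0.10 (adjusted p = 2.5e-05). It and 3 others of the 14 rises passed the level filter through 6-somites libraries only, which fixed their direction. Actin actc1 had 33.7 and 34.0 RPKM at 6-somites, against 11.7 and 9.40 RPKM at bud (1.6 ± 0.21, adjusted p = 0.00052). The myosin chaperone hsp90aa1.1 had 75.0 and 64.4 RPKM at 6-somites, against 29.0 and 18.7 RPKM at bud (1.53 ± 0.24, adjusted p = 0.0016), and the sarcomere assembly factor klhl41 rose as much (1.53 ± 0.16, adjusted p = 0.00016). Both 6-somites libraries were above both bud libraries for each of these genes, as for every gene called higher. The earlier determination factor myod1 was at 19.3 and 19.8 RPKM at 6-somites, against 14.9 and 9.57 RPKM at bud, and was not called (0.66 ± 0.23, adjusted p = 0.066). The member that fell was prdm1 (-0.54 ± 0.11, adjusted p = 0.0072), in zebrafish a switch for slow muscle, whose call did not hold when either 6-somites library was left out. These last genes, myod1 and prdm1, were picked with their values in view.

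The genes of somite segmentation, which oscillate or form stripes in the presomitic mesoderm, were called about as often as all genes (19.7%): 23 of 26 were tested, 2 rose, 3 fell and the median was 0.03. The rises were uncx (1.09 ± 0.18, adjusted p = 0.0019), a homeobox gene of the posterior somite, and meox1 (0.73 ± 0.19, adjusted p = 0.022), which was called in 1 of the 4 fits that left out a library, the one without bud replicate 1. The falls were the retinoic acid enzymes cyp26a1 and aldh1a2, given below, and foxc1 (-0.73 ± 0.10, adjusted p = 0.0009, named after its values were seen), a forkhead gene of the paraxial mesoderm. Without bud replicate 1 the list had 6 rises and 5 falls, so its count moved with that library.

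Notochord and matrix genes rose more often than they fell. Of 33 notochord genes, 22 were tested, 11 rose and 0 fell, with a median of 0.49, and 4 to 13 rose when a library was left out; 2 of the 11 passed the level filter through 6-somites libraries only. The sheath collagen gene col8a1a had 37.6 and 40.5 RPKM at 6-somites, against 12.1 and 11.8 RPKM at bud (1.63 ± 0.15, adjusted p = 8e-05). The sheath glycoprotein emilin3a rose by 1.19 ± 0.18 (adjusted p = 0.0013), the collagen cross-linking enzyme loxl5b by 1.18 ± 0.15 (adjusted p = 0.00046) and col2a1 by 1.06 ± 0.19 (adjusted p = 0.003). The members of the list below 0, named after their values were seen, were noto (-0.14, adjusted p = 0.56), foxa3 (-0.20, adjusted p = 0.55), tbxt (-0.29, adjusted p = 0.28) and foxa2 (-0.45, adjusted p = 0.068). None of them was called. With median-of-ratios scaling, 7 of the list rose and 1 fell. Of 53 matrix genes, of which col5a1 is also in the notochord list, 22 were tested, and 16 rose and 0 fell, with a median of 0.77; 13 to 15 rose when a library was left out, and 3 of the 16 passed the level filter through 6-somites libraries only. The matrix gene thbs4 (thrombospondin) had 8.43 and 7.72 RPKM at 6-somites, against 0.910 and 1.41 RPKM at bud (2.08 ± 0.18, adjusted p = 6.1e-05). The elastic fibre gene efemp2 had 19.4 and 20.2 RPKM at 6-somites, against 4.5 and 3.99 RPKM at bud (1.99 ± 0.19, adjusted p = 0.00011). The hyaluronan link protein gene hapln1a (1.54 ± 0.17, adjusted p = 0.00024) and the laminin gene lama5 (1.39 ± 0.25, adjusted p = 0.0035) came next.

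Blood and vascular progenitor genes had the highest median of all 28 lists, 0.87. Of 33, 12 were tested, 8 rose and 1 fell, and 7 to 9 rose when a library was left out; 2 of the 8 passed the level filter through 6-somites libraries only. The basic helix-loop-helix factor tal1 (ENSDARG00000019930), required for blood and vessel precursors, had 12.6 and 13.7 RPKM at 6-somites, against 2.66 and 2.34 RPKM at bud. That is a 5.24-fold higher mean and a log2 change of 2.01 ± 0.13 (adjusted p = 2.1e-05). Its LIM-domain partner lmo2 (ENSDARG00000095019) had 20.1 and 21.4 RPKM at 6-somites, against 4.27 and 5.98 RPKM at bud (1.84 ± 0.17, adjusted p = 8.6e-05). The ETS factor etsrp, a regulator of endothelial fate, had 21.7 and 21.2 RPKM at 6-somites, against 10.7 and 5.22 RPKM at bud (1.40 ± 0.29, adjusted p = 0.0078), and its call held only without bud replicate 1 among the omissions. The VEGF receptor gene kdr rose by 1.21 ± 0.19 (adjusted p = 0.0016). The member that fell was gata2 (-0.58 ± 0.14, adjusted p = 0.014, named after its values were seen), which is also a gene of ectoderm at these stages, and its call did not hold when either 6-somites library was left out. Identifier ENSDARG00000091986, which has no symbol in the name table, had 19.8 and 21.1 RPKM at 6-somites, against 4.22 and 5.91 RPKM at bud, close to those of lmo2, so the reads of one locus may be counted under both.

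Heart field genes were called in both directions. Of 24 cardiac progenitor genes, 14 were tested, 3 rose and 2 fell, with a median of 0.05, near the 0.09 of all genes. Untested members included nkx2.5 and vmhc, which had no matching symbol. The T-box gene tbx2 had 12.4 and 11.4 RPKM at 6-somites, against 4.64 and 2.42 RPKM at bud (1.56 ± 0.33, adjusted p = 0.0081). The LIM-homeobox gene isl1, also made in neurons, had 7.98 and 8.18 RPKM at 6-somites, against 4.81 and 3.28 RPKM at bud (0.86 ± 0.15, adjusted p = 0.0032). The T-box gene tbx20 rose by 0.58 ± 0.17 (adjusted p = 0.037), and the apelin receptor gene aplnrb, needed for heart progenitor migration, fell by 0.62 ± 0.20 (adjusted p = 0.045). Of these, isl1 alone was called whichever Gata6 library was left out; 1 to 6 of the list rose and 0 to 2 fell in those fits. The homeobox gene nkx2.7 had 16.3 and 17.8 RPKM at 6-somites, against 19.0 and 13 RPKM at bud (0.11 ± 0.23, adjusted p = 0.77), and hand2 had 20.4 and 19.2 RPKM at 6-somites, against 19.5 and 8.95 RPKM at bud (0.54 ± 0.25, adjusted p = 0.16). Both were named after their values were seen, and in both the stages overlapped. The other fall was that of gata5.

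The Wnt inhibitor gene tmem88a, named in the title of the study, had 4.27 and 3.7 RPKM at 6-somites, against 6.19 and 2.12 RPKM at bud. The 6-somites values lay between the bud values, and the change was 0.07 ± 0.30 (adjusted p = 0.89). Its sign turned with median-of-ratios scaling (-0.05), without 6-somites replicate 1 (-0.01) and without bud replicate 2 (-0.53), and without bud replicate 1 it was called as a rise of 0.67, at an adjusted p of 0.023. The paralog tmem88b had 3.62 and 3.59 RPKM at 6-somites, against 2.09 and 3.35 RPKM at bud (0.33 ± 0.14, adjusted p = 0.12). In WT embryos tmem88b rose by 0.88 (adjusted p = 0.00073), and the difference between the Gata6 and WT changes was -0.55 ± 0.20 (adjusted p = 0.50).

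Of 14 kidney genes, 10 were tested, 4 rose and 2 fell, with a median of 0.39. The shares of all tested genes were 13.3% higher and 6.39% lower. The podocyte regulator wt1 had 2.89 and 2.58 RPKM at 6-somites, against 1.05 and 0.683 RPKM at bud (1.01 ± 0.19, adjusted p = 0.0041). The homeobox gene irx3, also made in the neural plate, rose by 0.80 ± 0.19 (adjusted p = 0.015) and the Notch ligand gene jag2b by 0.76 ± 0.14 (adjusted p = 0.0043). The call of irx3 held only without bud replicate 1 among the omissions. Also called were mecom, which rose by 0.44 ± 0.13, and osr1, which fell by 0.46 ± 0.12, both named after their values were seen and neither called in every omission.

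Regional genes of the brain and eye moved in both directions. Of 55, 41 were tested, 13 rose and 6 fell, and the median was 0.03; with scaling 13 rose and 11 fell. The midbrain and hindbrain homeobox gene en2 (ENSDARG00000038868) had 14.4 and 13.9 RPKM at 6-somites, against 2.90 and 2.75 RPKM at bud (1.98 ± 0.12, adjusted p = 1.6e-05). The eye gene rx2 had 3.62 and 2.87 RPKM at 6-somites, against 0.213 and 0.671 RPKM at bud (1.57 ± 0.15, adjusted p = 8.6e-05), and it and 3 others of the 13 rises passed the level filter through 6-somites libraries only. The eye and midbrain gene mab21l2 had 23.1 and 20.5 RPKM at 6-somites, against 9.42 and 4.15 RPKM at bud (1.63 ± 0.29, adjusted p = 0.0034), and the POU factor gene pou3f2 rose as much (1.63 ± 0.13, adjusted p = 4e-05). Each of these 4 genes was called whichever Gata6 library was left out. Among the genes that fell, irx7 (-1.18, adjusted p = 0.00056), six7 (-0.83, adjusted p = 0.0033) and rx3 (-0.73, adjusted p = 0.026) had the largest changes, and the call of rx3 did not hold in 3 of the 4 omissions. These genes and the pan-neural gene sox2 were picked with their values in view. The level of sox2 was 50.4 and 43.3 RPKM at 6-somites, against 47.2 and 46.1 RPKM at bud, with an estimated change of 0.00 ± 0.13 (adjusted p = 0.99).

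Genes of neurons and the Notch pathway rose more than they fell. Of 44, 24 were tested, 11 rose and 3 fell, with a median of 0.54; 8 to 17 rose when a library was left out, the highest without bud replicate 1. The neuronal RNA-binding protein gene elavl3 had 12.5 and 12.8 RPKM at 6-somites, against 3.79 and 3.18 RPKM at bud (1.61 ± 0.19, adjusted p = 0.0003). The Notch target her4.1 had 1.79 and 2.03 RPKM at 6-somites, against 0.385 and 0.275 RPKM at bud (1.13 ± 0.10, adjusted p = 8.6e-05), values that rest on 51 and 57 reads at 6-somites and 11 and 7 reads at bud. It and 3 others of the 11 rises passed the level filter through 6-somites libraries only, which fixed their direction. The homeodomain gene phox2a, a regulator of noradrenergic neurons, went the other way, with 1.69 and 1.18 RPKM at 6-somites, against 5.47 and 14.9 RPKM at bud (-2.07 ± 0.32, adjusted p = 0.0016). The glial filament gene gfap, outside this list, had the largest rise of any named gene, with 7.78 and 7.53 RPKM at 6-somites, against 0.444 and 1.42 RPKM at bud (2.21 ± 0.28, adjusted p = 0.00048).

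Of 25 neural crest genes, 16 were tested, 6 rose and 2 fell, where 13.3% of all tested genes rose and 6.39% fell. The median was 0.33. The crest regulator sox10 had 14.6 and 14.8 RPKM at 6-somites, against 4.63 and 3.26 RPKM at bud (1.68 ± 0.17, adjusted p = 0.00014). The related sox9, also a placode gene, rose by 1.31 ± 0.30 (adjusted p = 0.012) and snai2, a regulator of crest emigration, by 1.27 ± 0.30 (adjusted p = 0.014). The mesenchymal regulator twist1a fell, with an average of 10.8 ± 0.46 RPKM at 6-somites and 26.8 ± 5.3 RPKM at bud (SD, n = 2 each; log2 change -1.23 ± 0.15, adjusted p = 0.00039). The calls of sox10 and twist1a held whichever Gata6 library was left out, and those of sox9 and snai2 only without bud replicate 1; over the omissions 1 to 7 of the list rose.

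Of 27 placode and ear genes, 18 were tested, 3 rose and 4 fell, where 13.3% of all tested genes rose and 6.39% fell. The neuronal differentiation gene neurod1, which passed the level filter through 6-somites libraries only, rose by 1.05 ± 0.15 (adjusted p = 0.001). The otolith matrix gene stm had 23.5 and 22.6 RPKM at 6-somites, against 34.1 and 58.9 RPKM at bud (-0.93 ± 0.24, adjusted p = 0.021). The call of stm held only without bud replicate 1 among the omissions. In the epidermis and enveloping layer list, 33 of 40 were tested, 6 rose and 4 fell, to be set beside the same shares of all genes. The median was 0.13. The claudin gene cldni had 29.4 and 33.3 RPKM at 6-somites, against 10.1 and 6.45 RPKM at bud (1.83 ± 0.34, adjusted p = 0.0041), and foxi3b, a regulator of ionocytes, rose by 1.34 ± 0.19 (adjusted p = 0.00092). The annexin gene anxa1 (-0.91 ± 0.17, adjusted p = 0.0038) and the desmosome gene pkp3a (-0.78 ± 0.098, adjusted p = 0.00045) fell. Omissions gave 2 to 12 rises in this list.

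The list for the hatching gland, whose enzymes later dissolve the egg envelope, had 5 rises and 0 falls among 7 tested genes of 8. The hatching enzyme gene he1.1 had 20.1 and 21.3 RPKM at 6-somites, against 7.88 and 5.06 RPKM at bud (1.57 ± 0.29, adjusted p = 0.0038). The second enzyme gene he1.2 rose by 1.40 ± 0.33 (adjusted p = 0.014), the cathepsin gene ctslb by 0.89 ± 0.27 (adjusted p = 0.039), tinagl1, which passed the level filter through 6-somites libraries only, by 0.76 ± 0.14 (adjusted p = 0.0039) and cd63 (named after its values were seen) by 0.73 ± 0.13 (adjusted p = 0.0037). The hatching enzyme genes are near-identical copies, so reads could be divided between them. The calls of he1.2 and ctslb held only without bud replicate 1.

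All called Hox genes rose. Of 37 Hox symbols, 31 were tested, 22 rose and 0 fell, with a median of 0.64; with scaling 18 rose and 0 fell. These homeobox genes are activated in order along each cluster and give the trunk its positional identity. The late cluster gene hoxd12 had 2.54 and 2.53 RPKM at 6-somites, against 0.513 and 0.474 RPKM at bud (1.24 ± 0.12, adjusted p = 0.00011). It was the 1 Hox gene that passed the level filter through 6-somites libraries only, so that its direction was fixed by the filter. The neighbouring hoxd11 had 6.13 and 5.31 RPKM at 6-somites, against 1.55 and 1.26 RPKM at bud (1.48 ± 0.14, adjusted p = 8.6e-05). Next came hoxa10b (1.45 ± 0.28, adjusted p = 0.0053) and hoxd3 (1.26 ± 0.17, adjusted p = 0.00071). This count was among those most moved by a single library, with 29 rises without bud replicate 1 and 8 to 10 without another of the 4. The summed RPKM of the 31 genes was 340.6 and 335.4 at 6-somites, against 265.5 and 165.0 in bud replicates 1 and 2.

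The retinoic acid pathway, which patterns the trunk and bounds the heart field, moved in both directions. Of 26 genes, 19 were tested, and 6 rose and 6 fell, where 13.3% of all tested genes rose and 6.39% fell. Among the falls were crabp2, cyp26a1, aldh1a2, rdh10 and dhrs3, which bind, make or break down retinoids, and the rises were 4 nuclear receptor genes (nr2f2, nr2f5, nr2f1 and rxra), the degrading enzyme gene cyp26b1 and the uptake receptor gene stra6. The binding protein gene crabp2 had 40.8 and 29.8 RPKM at 6-somites, against 108 and 322 RPKM at bud (-2.39 ± 0.39, adjusted p = 0.002). The degrading enzyme gene cyp26a1 had 15.5 and 14.8 RPKM at 6-somites, against 28.8 and 68.7 RPKM at bud (-1.5 ± 0.31, adjusted p = 0.0071). The synthesizing enzyme gene aldh1a2 had 11.3 and 10.7 RPKM at 6-somites, against 23.5 and 35.9 RPKM at bud (-1.32 ± 0.19, adjusted p = 0.0011). In all 3, bud replicate 2 was above bud replicate 1, and both were above the 6-somites libraries. The call of cyp26a1 did not hold without 6-somites replicate 2. The nuclear receptor gene nr2f2 rose, with 6.08 and 6.46 RPKM at 6-somites, against 1.70 and 1.51 RPKM at bud (1.48 ± 0.12, adjusted p = 4.5e-05).

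Of 37 genes in the Wnt list, 27 were tested, 8 rose and 6 fell, with a median of 0.01. For this and the BMP and FGF lists, the shares of all tested genes were 13.3% higher and 6.39% lower. Among the ligands, wnt11, which in zebrafish acts mainly through the non-canonical branch, had 22.5 and 25.9 RPKM at 6-somites, against 8.61 and 5.83 RPKM at bud (1.63 ± 0.29, adjusted p = 0.0036), and wnt4 rose by 1.29 ± 0.18 (adjusted p = 0.00094), while wnt8a had 8.79 and 8.87 RPKM at 6-somites, against 16.5 and 36.7 RPKM at bud. In the BMP list, 19 of 33 were tested, 1 rose and 5 fell, with a median of -0.22. The ligand gene bmp2 had 4.86 and 5.48 RPKM at 6-somites, against 8.40 and 15.2 RPKM at bud (-1.0 ± 0.19, adjusted p = 0.0048), and the pseudoreceptor gene bambi fell by 0.85 ± 0.17 (adjusted p = 0.0071), a call not held in 2 of the 4 omissions. The antagonist genes went opposite ways: chrd fell, as given above, and nog2 rose by 0.83 ± 0.17 (adjusted p = 0.0068), which did not hold without 6-somites replicate 2 or bud replicate 2. In the FGF list, 17 of 27 were tested, 6 rose and 1 fell, but with scaling 2 rose and 2 fell. The receptor gene fgfr4 fell in every omission (-0.57 ± 0.11, adjusted p = 0.0051 with all libraries), and the rises of fgfr3 (0.64 ± 0.19, adjusted p = 0.038), flrt3 (0.62 ± 0.15, adjusted p = 0.015) and spred2 (0.56 ± 0.14, adjusted p = 0.019) did not hold in at least 3 of the 4 omissions.

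Yolk syncytial layer and lipid transport genes moved in both directions, with 5 rises and 4 falls among 26 tested of 35. Over all tested genes, 13.3% rose and 6.39% fell. The fatty acid binding protein gene fabp2 had 127 and 127 RPKM at 6-somites, against 58.1 and 35.7 RPKM at bud (1.46 ± 0.45, adjusted p = 0.043), and apoa4b.1 had 26.5 and 26.7 RPKM at 6-somites, against 9.65 and 9.33 RPKM at bud (1.40 ± 0.35, adjusted p = 0.018). The lipoprotein assembly gene mttp had 44.1 and 45.4 RPKM at 6-somites, against 73.4 and 115 RPKM at bud (-1.02 ± 0.24, adjusted p = 0.014), and the sulfate transporter gene slc26a1 fell by 1.09 ± 0.21 (adjusted p = 0.005). None of these 4 calls held in every omission, and with scaling 2 of the list rose and 6 fell. In the list of genes of cilia and of Kupffer's vesicle, the ciliated left-right organizer, 3 of 11 tested genes of 24 rose and 0 fell. With scaling, 1 of the list rose and 0 fell. The 3 rises without scaling were dand5, a Nodal antagonist (1.06 ± 0.31, adjusted p = 0.036), foxj1b, a regulator of motile cilia (0.74 ± 0.15, adjusted p = 0.0059), and rfx4 (0.62 ± 0.19, adjusted p = 0.04). Of these foxj1b alone held in every omission.

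Few ribosomal protein genes were called without scaling. Of 68 ribosomal protein genes, 67 were tested, 0 rose and 1, rpl3, fell (-0.48 ± 0.15, adjusted p = 0.044); the median was 0.08, near that of all genes. Without bud replicate 1 there were 21 rises and 5 falls. Of 44 DNA replication and cell cycle genes, 34 were tested, 1 rose and 4 fell, where 13.3% of all tested genes rose and 6.39% fell. With median-of-ratios scaling, 1 of this list rose and 9 fell. The calls that follow are those without scaling. The cyclin gene ccnd2 rose by 0.79 ± 0.18 (adjusted p = 0.011), and the mitotic genes aurkb (-0.70 ± 0.17, adjusted p = 0.015), ccnb1 (-0.38 ± 0.10, adjusted p = 0.026), aurka (-0.37 ± 0.11, adjusted p = 0.042) and ccnb2 (-0.31 ± 0.088, adjusted p = 0.03, named after its values were seen) fell. None of these 5 calls held in every omission. No germ cell gene of 5 tested of 11 was called; the one with the smallest p was ddx4 (-0.39 ± 0.23, adjusted p = 0.24).

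Of 31 p53 response genes, 27 were tested, 4 rose and 2 fell, near the 13.3% and 6.39% of all tested genes. The median was 0.08, and with scaling 1 rose and 3 fell. The rises were plk2 (0.64 ± 0.15, adjusted p = 0.013), btg2 (0.53 ± 0.16, adjusted p = 0.041) and, named after their values were seen, sesn1 and aifm2, and 0 rose when either 6-somites library or bud replicate 2 was left out. The falls were the stress genes sesn3 (-0.93 ± 0.17, adjusted p = 0.0035) and gadd45b, with 3.66 and 4.11 RPKM at 6-somites, against 7.58 and 7.56 RPKM at bud (-0.81 ± 0.10, adjusted p = 0.00051). The direct target mdm2 was not called (-0.29 ± 0.42, adjusted p = 0.66), and without bud replicate 1 its change was 0.45. In the interferon list, 6 of 22 were tested, 1 rose and 3 fell. The ubiquitin-like gene isg15 had 0.643 and 0.580 RPKM at 6-somites, against 8.81 and 2.23 RPKM at bud (-1.80 ± 0.37, adjusted p = 0.0073), resting on 9 and 8 reads at 6-somites and 124 and 28 at bud. Both isg15 and socs1 passed the level filter through bud libraries only. In WT embryos isg15 averaged 0.356 RPKM at 6-somites and 0.706 RPKM at bud; the difference between the Gata6 and WT changes was -1.49 ± 0.53 (adjusted p = 0.49). The cytokine signalling genes socs1 (-0.76 ± 0.17, adjusted p = 0.01) and irf1b (-0.51 ± 0.12, adjusted p = 0.016) fell, and none of the calls of isg15, socs1 and irf1b held in every omission.

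Outside the lists, the largest rises included igfbp2, which binds insulin-like growth factors, with 5.28 and 6.26 RPKM at 6-somites, against 0.155 and 1.09 RPKM at bud (2.12 ± 0.32, adjusted p = 0.0014), emp2 (1.91 ± 0.18, adjusted p = 8.6e-05), egfl6 (1.83 ± 0.13, adjusted p = 3.1e-05), arhgef25b (1.81 ± 0.11, adjusted p = 1.6e-05) and the amino acid oxidase gene dao (1.80 ± 0.43, adjusted p = 0.015). The value of igfbp2 in bud replicate 1 came from 8 reads. The largest falls included vrtn, with 2.97 and 3.07 RPKM at 6-somites, against 16.2 and 40.5 RPKM at bud (-2.73 ± 0.38, adjusted p = 0.00077), and maf, a basic leucine zipper factor, with 1.44 and 1.42 RPKM at 6-somites, against 6.90 and 17.1 RPKM at bud (-2.3 ± 0.29, adjusted p = 0.00046). The amino acid transporter gene slc3a2 had 19.5 and 23.5 RPKM at 6-somites, against 78.4 and 132 RPKM at bud (-2.20 ± 0.28, adjusted p = 0.00051). The purine enzyme gene pnp4a (-2.20 ± 0.23, adjusted p = 0.00015), the secreted factor gene pnhd (-2.09 ± 0.44, adjusted p = 0.0078) and pkdccb (-2.06 ± 0.22, adjusted p = 0.00016) followed. An entry named mir15a had 2.33 and 5.39 RPKM at 6-somites, against 28.1 and 15.2 RPKM at bud (-2.23 ± 0.52, adjusted p = 0.013). Those values rest on 7 and 16 reads at 6-somites and 85 and 41 reads at bud. In WT embryos mir15a was at 2.74 and 1.59 RPKM at 6-somites and 1.59 and 1.08 RPKM at bud, and was not called (0.42 ± 0.52, adjusted p = 0.58). In double morphants at bud it was at 20.4 and 4.69 RPKM. Poly(A) libraries read longer transcripts over that locus, not the mature microRNA. The calls of dao and pnhd held in 1 and 2 of the 4 omissions, and that of mir15a not without 6-somites replicate 1.

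The Gata6 change was set beside that of WT embryos. WT embryos had 3975 called genes (29.7% of those tested), 2641 higher (19.7%) and 1334 lower (9.97%). Of the 2639 Gata6 calls, 2057 were also called in WT, all in the same direction, which is 77.9% of the Gata6 calls and 51.7% of the WT calls. Over all 13377 genes the log2 changes had a Pearson r of 0.80, a description across genes, which are not independent. Among the 2057 genes, the change was the smaller in Gata6 morphants for 1627 (79.1%), and the median ratio of the Gata6 change to the WT change was 0.77. That ratio was 0.86 without bud replicate 1 and 0.67 without bud replicate 2. The medians of 4 lists, given as a description, were nearer to 0 in Gata6 morphants. The median was 0.83 in Gata6 morphants and 1.15 in WT for muscle, 0.77 and 1.15 for matrix, -0.54 and -1.06 for endoderm, and -0.88 and -1.26 for the gastrula mesoderm and organizer list. Not all lists went this way. Medians farther from 0 in Gata6 morphants than in WT included those of notochord (0.49 and 0.44), BMP (-0.22 and -0.10) and retinoic acid (0.18 and -0.04).

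**Figure D3:**
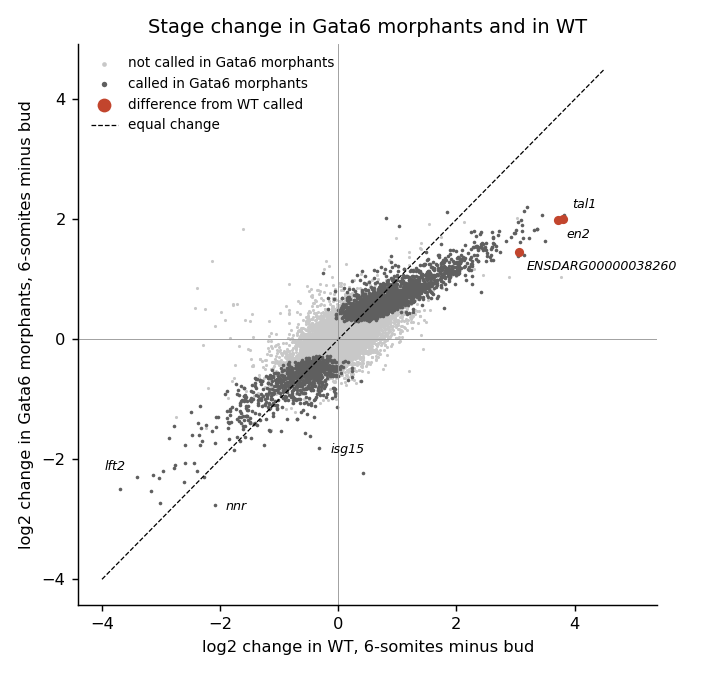
Log2 change from bud to 6-somites of each tested gene in Gata6 morphants (vertical) against WT (horizontal), with genes called in Gata6 morphants in dark grey and the 3 genes whose change differed from WT in red. Of the 2057 genes called in both, 1627 changed less in Gata6 morphants than in WT and lie between the dashed line of equal change and 0; tal1 and en2 changed by 2.01 and 1.98 in Gata6 morphants and by 3.81 and 3.71 in WT.

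Each library was also placed on the course that the other 3 kinds of embryo shared, on which 0 is their mean at bud and 1 their mean at 6-somites. The Gata6 libraries stood at 0.92 and 0.92 at 6-somites and at 0.28 and 0.13 at bud. WT libraries stood at 1.15 and 1.1 at 6-somites and at 0.06 and -0.11 at bud. Gata6 bud replicate 1, at 0.28, thus lay farther along than any bud library of the other kinds. Bud replicate 2, at 0.13, was next to the highest of those, a Gata5 morphant at 0.12. The Gata6 6-somites libraries lay behind those of WT and Gata5 morphants and ahead of those of double morphants. Each kind was placed on an axis made without it, so small gaps between kinds cannot be read. These positions are descriptions with no test. On an axis from WT alone the Gata6 6-somites libraries stood at 0.83 and 0.83. Beyond the 12 and 10 hours in the file names, no age of each pool is given, so that kind of embryo and age at collection cannot be told apart.

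**Figure D4:**
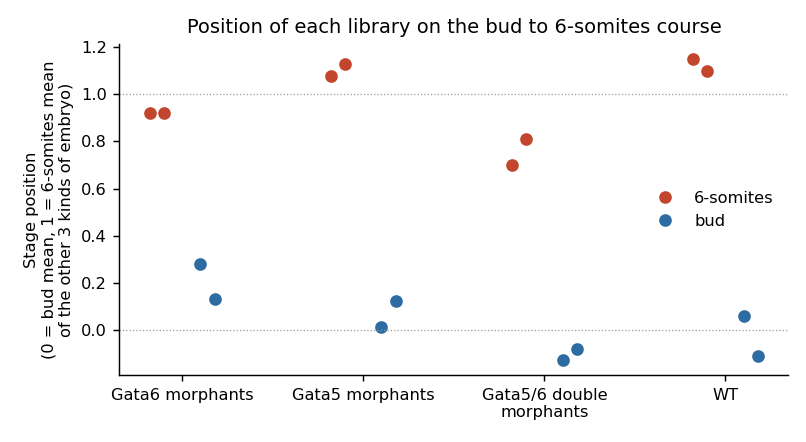
Position of each of the 16 libraries on the bud to 6-somites course, with 6-somites libraries in red left of bud libraries in blue for each kind of embryo; 0 and 1 are the bud and 6-somites means of the other 3 kinds. The Gata6 bud libraries stand at 0.28 and 0.13, the latter next to the highest of the other 6 bud libraries (0.12), and both Gata6 6-somites libraries at 0.92.

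Few single genes passed the test of a different course. Against WT, 3 genes (0.0224% of those tested) had a called difference, all with the smaller rise in Gata6 morphants. At an unadjusted p under 0.05 there were 1056, 365 higher and 691 lower. The count was 0 without WT 6-somites replicate 1 and 853 without Gata6 bud replicate 1. For tal1 the difference of the log2 changes, Gata6 minus WT, was -1.80 ± 0.19 (adjusted p = 0.0045). It was at 12.6 and 13.7 RPKM at 6-somites and 2.66 and 2.34 RPKM at bud in Gata6 morphants, and at 17.9 and 17.2 RPKM at 6-somites and 0.197 and 0.460 RPKM at bud in WT. Both stages contributed, since the Gata6 libraries were below WT at 6-somites and above it at bud. For en2 the difference was -1.73 ± 0.17 (adjusted p = 0.0043), with 14.4 and 13.9 RPKM at 6-somites and 2.90 and 2.75 RPKM at bud in Gata6 morphants, and 17.3 and 15.7 RPKM at 6-somites and 0.267 and 0.404 RPKM at bud in WT. The third was an identifier with no symbol, ENSDARG00000038260 (-1.61 ± 0.21, adjusted p = 0.028), with 5.10 and 5.68 RPKM at 6-somites and 1.01 and 1.70 RPKM at bud in Gata6 morphants, and 13.1 and 11.8 RPKM at 6-somites and 0.569 and 0.646 RPKM at bud in WT.

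The same 2 genes led the other comparisons. Against Gata5 morphants 4 identifiers (0.0299%) had a called difference: tal1 (-1.86 ± 0.19, adjusted p = 0.0062), en2 (-1.53 ± 0.17, adjusted p = 0.0079), lmo2 (-1.79 ± 0.24, adjusted p = 0.034) and ENSDARG00000091986, the near copy of lmo2 (-1.79 ± 0.24, adjusted p = 0.034). Against double morphants, which carry the Gata6 morpholino as well, 2 genes (0.015%) were called, tal1 (-2.09 ± 0.19, adjusted p = 0.0018) and en2 (-1.71 ± 0.17, adjusted p = 0.0025). In double morphants tal1 was at 17.4 and 17.9 RPKM at 6-somites and 0.135 and 0.0418 RPKM at bud, so the higher bud level of Gata6 morphants was not shared by the other embryos given that morpholino. The 3 comparisons share the Gata6 libraries and are not independent. The bud values of the Gata6 libraries, 2.66 and 2.34 RPKM for tal1, came from 209 and 164 reads, and those for en2 from 157 and 133 reads. Leaving out 1 library took the adjusted p to between 0.0042 and 0.058 for tal1 and between 0.0029 and 0.055 for en2 against WT, and to between 0.0033 and 0.026 and between 0.0033 and 0.034 against double morphants. Against Gata5 morphants it reached 0.084 for tal1, 0.1 for en2 and 0.28 for lmo2 and ENSDARG00000091986, each without Gata5 6-somites replicate 2, and the call was lost in 2, 3, 5 and 5 of the 8 omissions. ENSDARG00000038260 lost its call in 5 of the 8 omissions against WT. The Gata6 bud libraries stood ahead of the WT bud libraries on the stage course, as given above, and the part of this position in the differences was not tested.

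**Figure D5:**
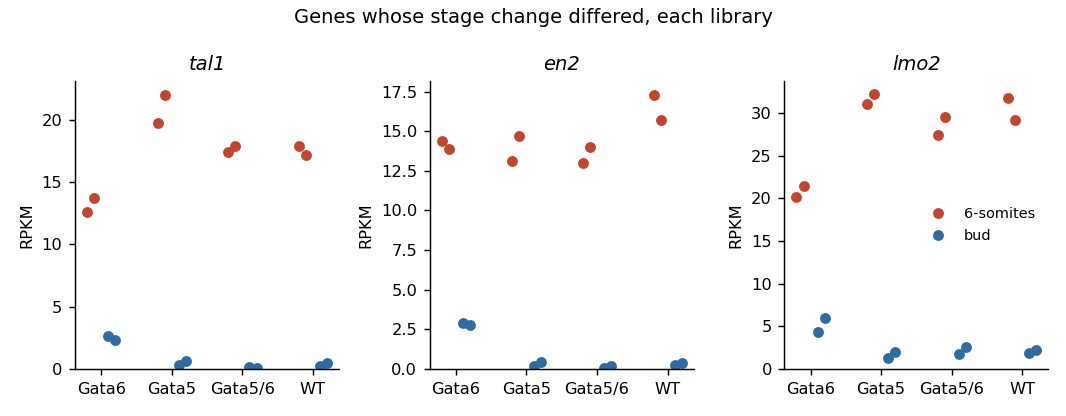
RPKM of tal1, en2 and lmo2 in each library, with 6-somites in red left of bud in blue for Gata6, Gata5 and Gata5/6 double morphants and WT. At bud the Gata6 libraries are above all other bud libraries for the 3 genes (tal1 2.66 and 2.34, highest of the others 0.638).

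Of all members of the 28 lists, tal1 and en2 were the only ones with a called difference from WT. Other differences missed the threshold, which does not show that these genes changed alike. That of mab21l2 was as large (-1.87 ± 0.41, adjusted p = 0.18), and that of etsrp was somewhat smaller (-1.64 ± 0.41, adjusted p = 0.29). Outside the lists, that of mir15a was larger (-2.66 ± 0.73, adjusted p = 0.35). Those with the smallest adjusted p among the named genes were lmo2 (-1.53 ± 0.24, adjusted p = 0.061), sox10 (-1.55 ± 0.24, adjusted p = 0.061), col8a1a (-1.45 ± 0.21, adjusted p = 0.053), egfl6 (-1.18 ± 0.19, adjusted p = 0.061) and nr2f2 (-1.02 ± 0.17, adjusted p = 0.061). For sox10 the values were 14.6 and 14.8 RPKM at 6-somites and 4.63 and 3.26 RPKM at bud in Gata6 morphants, and the WT means were 16.7 RPKM at 6-somites and 0.920 RPKM at bud. For col8a1a the Gata6 libraries had 37.6 and 40.5 RPKM at 6-somites and 12.1 and 11.8 RPKM at bud, and the WT means were 61.9 RPKM at 6-somites and 6.48 RPKM at bud. Among the heart genes the differences were -1.11 ± 0.47 for tbx2 (adjusted p = 0.60) and -0.37 ± 0.22 for isl1 (adjusted p = 0.68), and 0.01 ± 0.24 for the endoderm gene cxcr4 (adjusted p = 0.99).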

How the data were processed

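Poly(A) RNA of whole zebrafish embryos was sequenced in 16 libraries, 2 for each kind of embryo and stage. The authors deposited 1 table per library of RPKM values by gene; the build was Zv9 per the submitters' processing notes, while for aligner and gene models the entry is: not given in the sources used here. Symbols came from a name table and matched 19258 of 27257 identifiers. That table often gives no copy letter, so zebrafish copies are not always told apart. List members went untested either because they were below the level filter or because no symbol matched, whatever their level. The latter included axin2 of the Wnt list and szl, vox and vent of the BMP list. RPKM steps gave whole read numbers for 25519 genes (99.96%, within 0.01 read), and hence depth; 100 reads carry a counting error of about 10%.

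Values were taken to log2(RPKM + 1) and fitted with limma 3.58.1 (R 4.3.3) to all 16 libraries, with 8 groups and 8 residual degrees of freedom, over the 13377 genes at 1 RPKM or more in at least 2 of the 4 Gata6 libraries. Differences between stage changes were interaction terms. P-values were Benjamini-Hochberg adjusted. The script was tested on simulated data. Tables and plots used Python 3.11.15, pandas 2.3.3, NumPy 2.4.6 and matplotlib 3.10.9.

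Named genes are the 12 highest and 12 lowest called changes with a symbol, a mean of 5 RPKM in the higher group and stages that do not overlap, up to 4 called members per list with the largest changes (with none called, the smallest p), up to 6 called genes on each side of each of the 3 interactions, and gata5, tmem88a, tmem88b and mdm2. The members and the 28 lists were chosen with earlier results of these data known. Alternatives were 2 other pseudocounts, 2 other filters, median-of-ratios scaling, the libraries of a contrast alone, weights by stage, limma-voom on recovered reads, a replicate block, leaving out each library, and a WT axis for stage position. Promoter windows were planned but not analysed here. Some genes that the rule names are not reported here.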

Additional observations from a re-analysis of the deposited data

Results flagged for a closer look

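Stage changes in Gata6 morphants that differed from those in other embryos, by limma's test of the difference with Benjamini-Hochberg adjustment, concerned 5 identifiers. Against WT they were en2 (-1.73 ± 0.17, adjusted p = 0.0043), tal1 (-1.80 ± 0.19, adjusted p = 0.0045) and ENSDARG00000038260 (-1.61 ± 0.21, adjusted p = 0.028). Against Gata5 morphants they were tal1 (-1.86 ± 0.19, adjusted p = 0.0062), en2 (-1.53 ± 0.17, adjusted p = 0.0079), lmo2 (-1.79 ± 0.24, adjusted p = 0.034) and ENSDARG00000091986 (-1.79 ± 0.24, adjusted p = 0.034). Against double morphants they were tal1 (-2.09 ± 0.19, adjusted p = 0.0018) and en2 (-1.71 ± 0.17, adjusted p = 0.0025). In each case the rise to 6-somites was the smaller in Gata6 morphants.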

How the results depend on the processing

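Leaving out 1 library gave 843 to 4959 calls for the Gata6 stage change, 2202 to 3587 for the WT stage change, 0 to 853 for Gata6 minus WT, 0 to 754 for Gata6 minus Gata5 and 2 to 478 for Gata6 minus double morphants, the last 3 highest without Gata6 bud replicate 1. With a filter at 5 RPKM, 1404 Gata6 and 1982 WT stage changes were called, and 9 and 7 differences from WT and Gata5 morphants. With the libraries of each contrast alone there were 287 Gata6 stage changes and 0, 0 and 4 differences from WT, Gata5 and double morphants. Differences from WT numbered 8 with a pseudocount of 0.1, 5 with 0.5, 6 with weights by stage and 29 with limma-voom. Differences from Gata5 morphants numbered 0 with a pseudocount of 0.1, 2 with median-of-ratios scaling and 8 with limma-voom, and those from double morphants 5 without a filter and 5 with weights by stage. The sign of tmem88a turned with scaling (-0.05), without 6-somites replicate 1 (-0.01) and without bud replicate 2 (-0.53), and that of mdm2 without bud replicate 1 (0.45); over the omissions tmem88a ranged between -0.53 and 0.67 and mdm2 between -1.02 and 0.45. The 6-somites positions were 0.94 and 0.92 with a pseudocount of 0.1 and 0.83 and 0.83 on the WT axis. The cause of these shifts was not tested.

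Samples were not treated as paired by replicate number. Across genes, same-numbered deviations at the 2 stages correlated at -0.10 in Gata6 morphants, -0.15 in Gata5 morphants, -0.02 in double morphants and 0.09 in WT. With 2 libraries per stage and kind of embryo, these values cannot tell whether same-numbered samples shared a clutch. With a replicate block, 2739 Gata6 stage changes and 5 differences from WT were called.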
